A study of Rattus norvegicus with 102 samples.

Results

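The comparison covered RNA from the hippocampus of male Fisher 344 rats that was sequenced from libraries named WT and from poly-A libraries run on an Illumina instrument. Each of 102 column names occurred in both tables, and the WT library of a name was set against the poly-A library of the same name. These libraries were taken from 306 in all, the remainder being poly-A libraries run on an Ion Proton instrument. The names stand for 34 rats with 3 dissected subfields each, namely CA1, CA3 and the dentate gyrus (DG), which gives 34 pairs per subfield. There were 10 young rats of 5 to 6 months and 24 aged rats of 17 to 22 months. The water maze placed 12 of the aged rats in the impaired group and 12 in the unimpaired group. The labels name no drug, diet or genetic change in any group. The samples hold bulk tissue, so fewer cells of a type and less RNA per cell cannot be told apart. The label WT is not expanded in the sources used here. The kit, instrument and counting behind the WT table are likewise not given there, so a difference in library preparation, in sequencing and in read assignment cannot be told apart.

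A poly-A library is made by catching RNA through the run of adenosines that most messenger RNAs carry at their 3′ end. Ribosomal RNA, transfer RNA, many small RNAs and the messenger RNAs of the replication-dependent histones lack a long tail of this kind. The histone messages end in a stem-loop instead. Precursor RNA that still holds introns is spliced and given its tail in the nucleus, and mitochondrial transcripts are cut from long precursors and given short tails in the organelle. A library made in another way can hold these RNAs in other proportions, so each gene was described by the ratio of its level in the WT library to its level in the poly-A library of the same tissue. Levels are reads per 1000000 reads on genes outside the mitochondrial chromosome (RPM, with MT for the mitochondrial chromosome), and each difference is the mean over rats of log2(WT + 0.5) minus log2(poly-A + 0.5). Such a difference understates the change of a gene with few reads.

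Annotated miRNA genes were among the features with the widest range, and 6 of those that differed at least 2-fold in every subfield could be matched by symbol to mature sequences in RefSeq (build GRCr8). The sequences show which small RNAs the symbols stand for, with the seed, bases 2 to 8, in capitals. Reads on such a gene may come from the mature miRNA, its precursor or the transcript that hosts it, and the tables do not tell these apart. The first 7 belong to genes that were higher in WT libraries, and the last 2 to Mir770, which was lower.
rno-miR-344-5p: uCAGGCUCcuggcuagauuccagg
rno-miR-344-3p: uGAUCUAGccaaagccugaccgu
rno-miR-344a-5p: uCAGGCUCcuggcuagauu
rno-miR-344g: aGUCAGGCuccuggcaggaguc
rno-miR-384-5p: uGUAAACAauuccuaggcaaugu
rno-miR-384-3p: aUUCCUAGaaauuguucacaau
rno-miR-9b-5p: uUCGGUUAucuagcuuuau
rno-miR-770-5p: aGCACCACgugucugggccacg
rno-miR-770-3p: gUGGGCCUgacguggag

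The 344 group lies on the minus strand of chromosome 1, with rno-miR-344-5p at chr1:124718806-124718829, rno-miR-344a-5p at chr1:124655090-124655108 and rno-miR-344g at chr1:124754989-124755010 of GRCr8. Mir344-1 and Mir344a-2 share the seed CAGGCUC of their 5p forms, and the other sequences shown have a seed each. Mir384 (rno-miR-384-5p at chrX:74490939-74490961, minus strand) and Mir3597-1, whose mature form is rno-miR-9b-5p (chr2:175975025-175975043, minus strand), lie elsewhere. Mir770 lies on the plus strand of chromosome 6, with its 5p form at chr6:134298094-134298115. The deposited tables use build rn5 and give a chromosome for each gene but no positions.

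The WT libraries held 3.54 M to 20.6 M reads (M for 1000000) with a median of 8.07 M, and the poly-A libraries 3.25 M to 42.8 M with a median of 10.7 M. Of 102 WT libraries, 93 were closest, over centred gene levels, to the poly-A library of their own name, and 7 of the other 9 were closest to a library of the same subfield. Markers of each subfield were highest in their own subfield in both tables: the summed level of the CA1 pyramidal list in WT libraries had a median of 1366 RPM in CA1, 524 in CA3 and 316 in DG. The CA2 and CA3 list had medians of 661, 1390 and 1037, and the dentate granule cell list 319, 165 and 542. In 16 pairs from 12 rats at least 1 library was nearest to another subfield than its label, and 13 of these were so in both tables. Of the 16 pairs, 15 came from rats numbered from 9000 up (16 of the 34 rats), and the pairs comprised 1 from CA1, 10 from CA3 and 5 from DG. The CA3 poly-A library of 1 impaired rat that is among these stood apart from the other 33 CA3 poly-A libraries. This library, called the divergent CA3 poly-A library below, placed 26.2% of its MT reads on mitochondrial rRNA against 5.10% to 7.14% in the others, and 1.04% of its non-MT reads on miRNA genes against 0.0389% to 0.0735%. Among WT libraries, 9 (1 CA1, 5 CA3 and 3 DG) had an rRNA share under 0.004%, with 0.00184% to 0.00283% against 0.00729% to 0.0199% in the other libraries. These 9 had miRNA shares of 0.163% to 0.679%, and the others 0.0714% to 0.379% with a median of 0.0882%. Mitochondrial rRNA took 33.9% to 46.9% of the MT reads of these 9, against 39.9% to 72.4% in the other WT libraries. Apart from rRNA itself, by which the 9 were picked, shares and counts that these libraries or the divergent CA3 library moved are given below without them as well.

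Protein-coding genes held nearly all non-MT reads in both library types, and the WT libraries gave a slightly smaller part to them. In CA1 their share was lowest at 99.17%, median 99.37% and highest at 99.43% in WT libraries, against 99.43%, 99.47% and 99.53% in poly-A libraries. The WT share was lower in 34 of 34 CA1 pairs, 33 of 34 CA3 pairs and 34 of 34 DG pairs. A two-sided sign-flip permutation test over pairs gave an adjusted p of 1.64e-05 in CA1 and DG, which is the smallest that these permutations can give after adjustment over biotypes and subfields, and 0.000485 in CA3. The mean CA3 difference was -0.145 percentage points, and -0.179 without the divergent library and its pair (adjusted p = 1.5e-05, same test). It was -0.0922 without the WT libraries low in rRNA but with the divergent library (adjusted p = 0.00997, same test). In the rats numbered from 9000 up, which include the rat of the divergent library, it was -0.0650 (adjusted p = 0.545, same test), and without that rat -0.134 in the other 15 (adjusted p = 0.00012, same test). Against the Ion Proton libraries, whose median share was 98.1% in CA1 and CA3 and 98.2% in DG, the direction was the opposite. Counted over all reads, MT included, the WT share was higher, because a smaller part of WT reads lay on MT genes. The biotypes with the largest gains in percentage points were miRNA genes, processed transcripts, pseudogenes and rRNA genes.

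**Figure D1:**
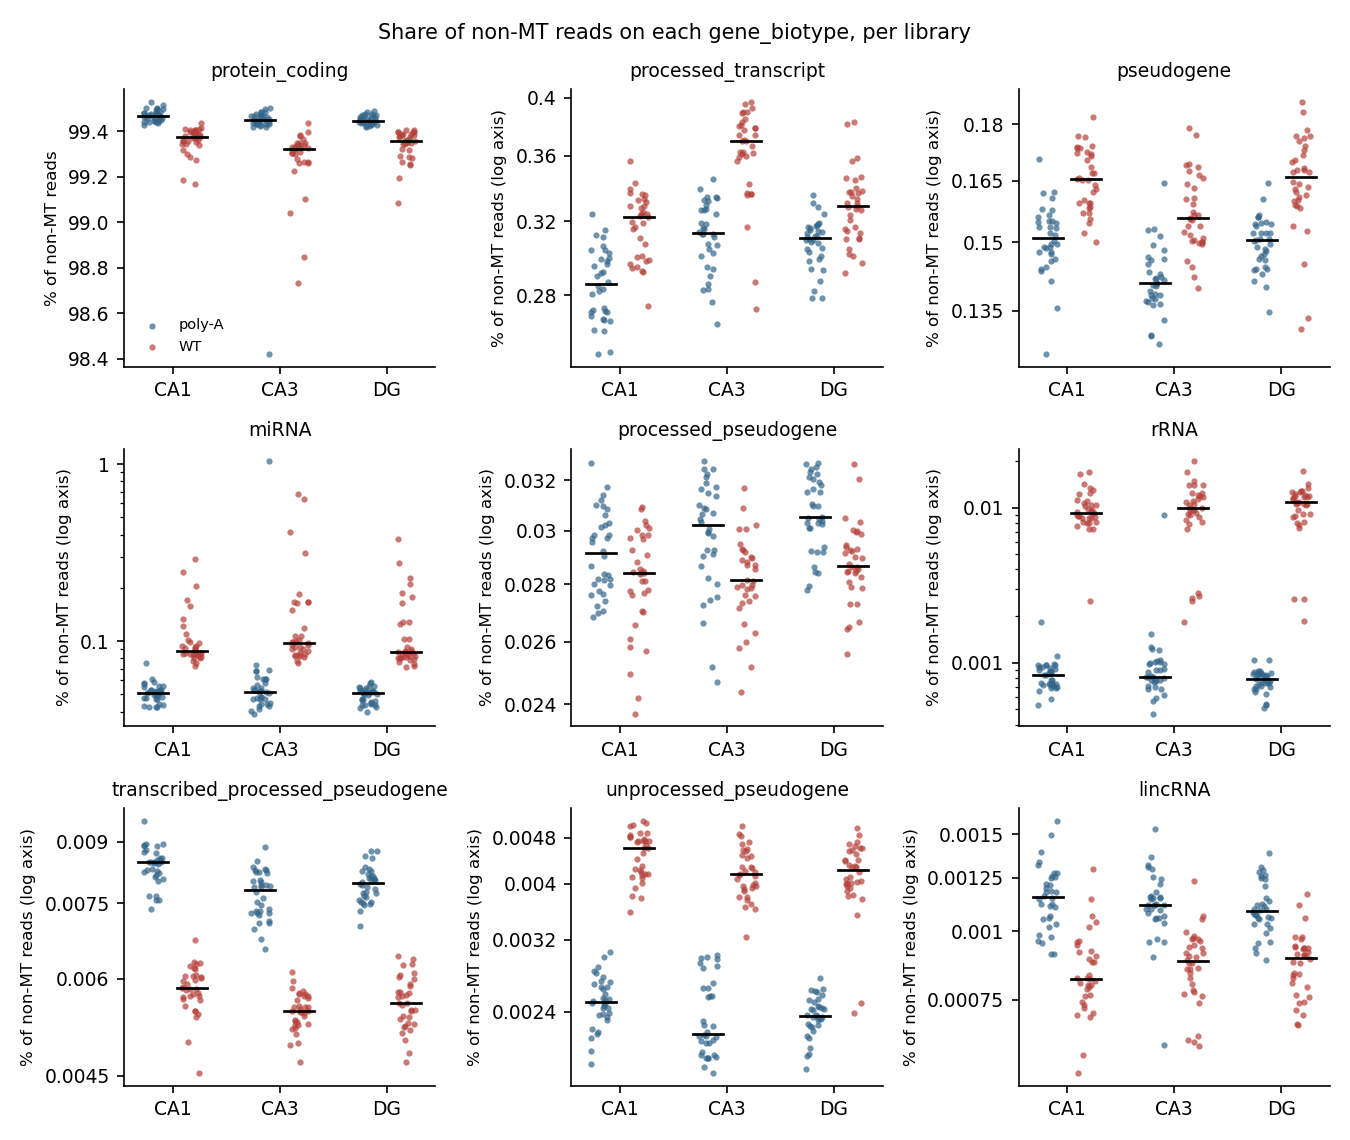
Percent of non-MT reads on each of 9 gene biotypes (y axis, log scale except for protein_coding) in the poly-A libraries (blue) and WT libraries (red) of CA1, CA3 and DG, 1 point per library with the median as a black line. The rRNA and miRNA points of WT libraries lie above nearly all poly-A points, and the transcribed_processed_pseudogene points lie below.

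The rRNA biotype, which in this annotation holds 278 copies named 5S_rRNA and 1 other gene, had the largest relative gain. Its share in CA1 was 0.00252% at the lowest, 0.00931% at the median and 0.0170% at the highest in WT libraries, and 0.000532%, 0.000832% and 0.00185% in poly-A libraries. No WT library of CA1 overlapped the poly-A libraries. By the ratio of the mean shares it was 11.7-fold higher in CA1, 8.93-fold higher in CA3 and 13.3-fold higher in DG. The WT share was higher in 34 of 34 pairs of each subfield (adjusted p = 1.64e-05, sign-flip permutation test). In CA3 the divergent poly-A library reached 0.00902%, while the other 33 reached at most 0.00152%, and without it the CA3 value was 11.3-fold higher.

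The 5S_rRNA gene on chromosome 19, annotated as the small RNA of the large ribosomal subunit, took most of these reads. In CA1 it had 5.11, 73.8 and 157 RPM as the lowest, median and highest WT level against 0.299, 1.27 and 8.80 in poly-A libraries, with a difference of 5.37 ± 0.166 (SE, log2, n = 34 pairs). The groups overlapped in CA1 and CA3 and not in DG. In CA3 the divergent poly-A library had 42.0 RPM and the other 33 at most 3.49, below the lowest WT level of 3.93. Of the 279 genes of the biotype, 4 passed the filter on low values, 2 were at least 2-fold higher in all 3 subfields (4.82% of all genes tested were) and none was lower (2.7% of all genes). The other was a 5S_rRNA copy on chromosome 11 with a mean difference of 2.14. Its poly-A mean was below 1 RPM, so it passed the filter through its WT level and had to be higher. The copies are near identical, so the division of reads among them is uncertain.

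The miRNA biotype rose from a median share of 0.0511% in CA1 poly-A libraries (lowest 0.0425%, highest 0.0756%) to 0.0876% in WT libraries (lowest 0.0726%, highest 0.292%). The share was higher in WT in 34 of 34 CA1 pairs, 33 of 34 CA3 pairs and 34 of 34 DG pairs, and the ratio of means was 2.11, 1.89 and 2.37. By the sign-flip permutation test the adjusted p was 1.64e-05 in CA1 and DG and 0.0822 in CA3, and in CA3 without the divergent library and its pair it was 1.5e-05, with a ratio of means of 2.97. Without the WT libraries low in rRNA the ratios were 2.05, 1.20 and 2.13, with 28 of 29 CA3 pairs higher and an adjusted p of 0.938 in CA3 by the same test. This CA3 setting still held the divergent poly-A library, at 1.04%, and its medians were 0.0950% in WT and 0.0526% in poly-A libraries. The rats numbered from 9000 up had no CA3 WT library low in rRNA. Without the divergent library their CA3 ratio was 1.73, with 15 of 15 pairs higher (adjusted p = 0.00012, same test). A miRNA-annotated gene, AABR06078907.4, which was singled out after its values were seen, took up most of the highest CA3 shares, which were 0.679% in WT and 1.04% in poly-A libraries with it and 0.106% and 0.0899% without it. The CA3 medians without it were 0.0841% and 0.0446%, and the share was then higher in WT in 34 of 34 CA3 pairs (adjusted p = 1.5e-05, sign-flip permutation test).

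Processed transcripts, an annotation class of spliced RNAs without an open reading frame call, had a median share of 0.323% against 0.286% in CA1, 0.370% against 0.313% in CA3 and 0.329% against 0.311% in DG. The share was higher in WT in 34, 33 and 28 of 34 pairs. Genes annotated as pseudogene gained a smaller part, with medians of 0.165% in WT and 0.151% in poly-A libraries of CA1, and were higher in 34, 33 and 32 pairs. Unprocessed pseudogenes were 1.79, 1.77 and 1.76 times as high by the ratio of means in CA1, CA3 and DG. All of these differences had an adjusted p of 1.64e-05 by the sign-flip permutation test. The Ion Proton libraries lay above the WT libraries in these 3 classes, with median shares in CA1 of 0.370%, 0.726% and 0.00570%, and in the miRNA class with 0.167%.

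A few noncoding classes moved the other way. The 7 transcribed processed pseudogenes had a WT share of 0.694, 0.708 and 0.705 times that in poly-A libraries, with 0 of 34 pairs higher in each subfield. The 13 lincRNA genes had ratios of 0.732, 0.775 and 0.790, with 1, 2 and 2 pairs higher. Processed pseudogenes differed little, with ratios of 0.965, 0.945 and 0.940 and adjusted p-values of 0.00923, 0.00138 and 0.000144 (sign-flip permutation test), and in the rats numbered from 9000 up alone no subfield passed the test. The median CA1 share was 0.0284% in WT and 0.0291% in poly-A libraries, against 0.568% in Ion Proton libraries. Antisense, misc_RNA and transcribed unprocessed pseudogene genes held under 1000 WT reads each and are not described further.

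Mitochondrial transcripts took a smaller part of all reads in WT libraries. In CA1 they took 8.19%, 10.4% and 12.1% of WT reads at the lowest, median and highest, and 11.9%, 14.2% and 20.4% of poly-A reads. The medians were 8.97% against 12.7% in CA3 and 9.11% against 11.4% in DG, and the groups overlapped in all 3 subfields. The WT value was higher in 0, 1 and 3 of 34 pairs, and the sign-flip permutation test gave adjusted p-values of 1.5e-05, 1.5e-05 and 5e-05 for CA1, CA3 and DG. Inside the mitochondrial reads the makeup differed far more. The 2 mitochondrial rRNA genes held a median of 50.9%, 48.9% and 51.4% of MT reads in WT libraries of CA1, CA3 and DG and 6.73%, 5.93% and 6.46% in poly-A libraries. The 13 protein-coding MT genes held 48.9%, 50.8% and 48.3% against 93.2%, 94.0% and 93.4%. No WT library overlapped a poly-A library in either quantity, the divergent CA3 poly-A library included.

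**Figure D2:**
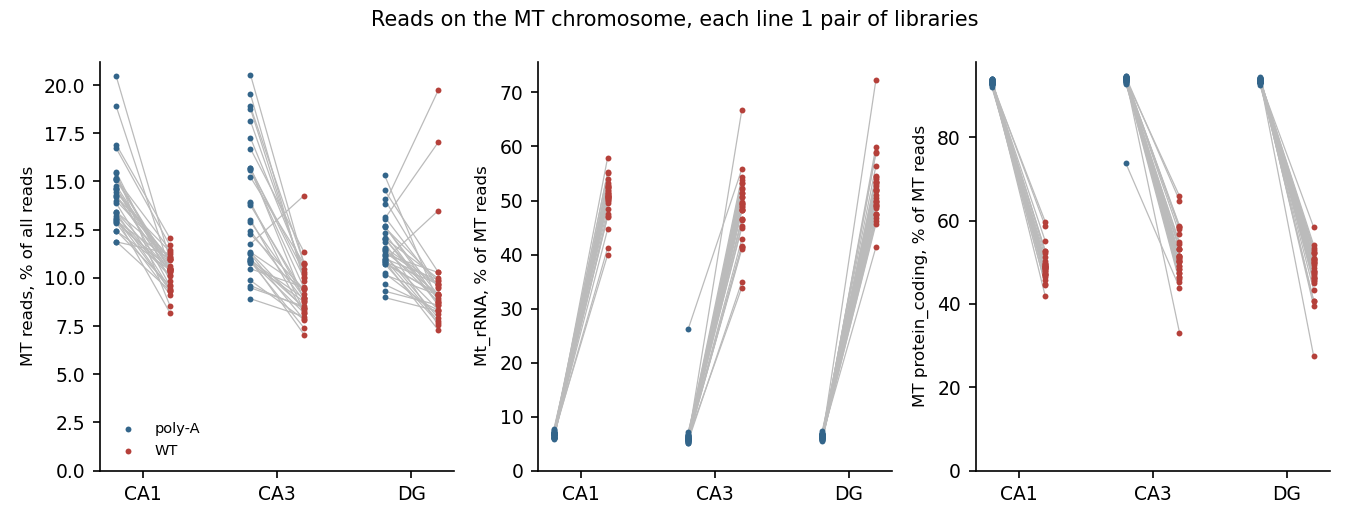
MT reads as percent of all reads (left), and mitochondrial rRNA (middle) and MT protein-coding genes (right) as percent of MT reads, for the poly-A and WT library of each rat and subfield, joined by a line per pair. Nearly every line falls in the left panel, every line rises in the middle panel and every line falls in the right panel, where 1 CA3 poly-A library lies apart at 73.7%.

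On the non-MT scale, AY172581.24, annotated as mitochondrial rRNA, was higher by a mean of 3.04 (log2) and AY172581.9, the other rRNA gene, by 0.84. Among the 13 protein-coding genes, which encode subunits of the respiratory chain, 11 were at least 2-fold lower in every subfield (84.6%, against 2.7% of all genes) and none was higher (4.82% of all genes), with a median difference of -2.64. Mt-nd2, a complex I subunit, had CA1 levels of 442, 685 and 1288 RPM in WT libraries and 8336, 10831 and 17087 in poly-A libraries, which do not overlap. Its CA1 difference was -4.01 ± 0.0847 (SE, n = 34 pairs; limma adjusted p = 3.63e-32). Mt-cyb, the cytochrome b of complex III, had a mean of -3.32, and Mt-nd4 of -3.35. The exceptions were Mt-co1, the catalytic subunit of complex IV, at -0.28 and ND3 at 0.33. Of 22 mitochondrial tRNA genes, 15 passed the filter, 5 were higher (33.3%, against 4.82% of all genes) and 1 was lower (6.67%, against 2.7%) in all subfields, from 2.09 for AY172581.19 to -1.44 for AY172581.20.

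At the level of single genes, 14165 passed a mean of 1 RPM over the libraries of both tables. A limma test on the paired differences with Benjamini-Hochberg adjustment called 85.6% of them in CA1, 82.4% in CA3 and 82.6% in DG. The calls were split almost evenly, with 42.6%, 41.8% and 41.9% of the genes tested higher in WT libraries of CA1, CA3 and DG and 43.0%, 40.6% and 40.6% lower. The text therefore counts a gene as higher or lower where it also differed by at least 1 on the log2 scale. In CA1 862 genes (6.09% of those tested) were higher in WT libraries and 485 (3.42%) were lower. In CA3 758 (5.35%) were higher and 402 (2.84%) lower, and in DG 767 (5.41%) were higher and 478 (3.37%) lower. In all 3 subfields 683 genes (4.82%) were higher, with a median difference of 1.43, and 382 (2.7%) were lower, with a median of -1.35. The 683 held a median of 5.10% of non-MT reads in WT libraries and 1.85% in poly-A libraries, and the 382 held 1.88% and 5.08%. The median over all genes tested was -0.00. Within rats numbered below 9000 (18) and from 9000 up (16), CA1 had 864 and 885 genes higher and 486 and 510 lower. In CA3 692 and 842 were higher and 398 and 480 lower, and in DG 782 and 761 were higher and 412 and 595 lower. The groups had no overlap in CA1 for 1375 genes that were higher in WT libraries (9.71%) and 681 that were lower (4.81%), in CA3 for 685 (4.84%) and 366 (2.58%), and in DG for 1164 (8.22%) and 626 (4.42%). Without the divergent library and its pair the CA3 counts were 1029 (7.26%) and 482 (3.4%). Without the WT libraries low in rRNA the counts of higher and lower genes stayed close, at 861 and 489 (CA1), 772 and 428 (CA3) and 776 and 490 (DG).

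The share of genes that were higher was also read by the level of the gene. Of genes at 1 to 3 RPM, 7.02% were higher and 0.94% lower in all subfields, while of genes at 300 RPM or more 2.94% were higher and 4.23% lower. Of the 683 genes that were higher, 123 had a poly-A mean below 1 RPM and passed the filter through their WT level, and of the 382 that were lower, 10 passed through their poly-A level, so these shares are partly set by the filter. When every library was thinned by calculation to 2737505 reads, CA1 WT libraries showed a median of 16378.5 genes with a read and CA1 poly-A libraries 15816. The thinned number was higher in WT in 34 of 34 CA1, 33 of 34 CA3 and 34 of 34 DG pairs (p = 1e-05 in each, the smallest the sign-flip permutation test can give). Without thinning the medians were 17783 and 17439 in CA1, and the same test gave p = 0.573, 0.257 and 0.623 in CA1, CA3 and DG. Counting genes with at least 4 reads, also without thinning, the mean WT minus poly-A number was -201, -105 and -399 (p = 0.233, 0.525 and 0.0275, adjusted p = 0.0825 in DG, same test).

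Replication-dependent histone genes, which encode the core and linker histones made in large amounts when DNA is copied, are described here over the whole list. Of 39 listed, 26 passed the filter, and 24 of these were higher in all 3 subfields and none lower, with a median difference of 2.76. The poly-A mean was below 1 RPM for 22 of the 24, which passed the filter through their WT level and so had to differ in this direction. The share of tested members that were higher (92.3%, against 4.82% of all genes) is therefore partly set by the filter. Their summed level in CA1 was 275, 325 and 401 RPM at the lowest, median and highest in WT libraries and 42.6, 51.4 and 60.1 in poly-A libraries, without overlap. For 20 of the 26, every WT library lay above every poly-A library in all 3 subfields at once. The share of all genes was read for single subfields only, at 9.71%, 4.84% and 8.22% in CA1, CA3 and DG, so the measures are unlike. The count of 20 too is partly set by the filter. The list was chosen with results of these data known.

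Hist1h1d, a linker histone, had CA1 levels of 32.8, 43.1 and 55.8 RPM in WT libraries and 0, 0.126 and 0.611 in poly-A libraries. Its difference was 6.05 ± 0.0698 in CA1, and in CA3 the divergent poly-A library, at 1.83, was the highest. Hist2h4, which encodes histone H4, had 15.3, 22.5 and 30.8 against 0, 0.214 and 0.785, a difference of 4.99 ± 0.0653. These groups do not overlap in any subfield. Hist1h4b, also a histone H4 gene, is listed under 7 identifiers with near-identical sequence, of which 5 were tested, so its reads are uncertain in their assignment, and the 1 with the largest difference had a mean of 5.80. LOC680097, a protein-coding gene on chromosome 17 outside the list, was also higher, with 46.6, 58.0 and 78.7 RPM in CA1 WT libraries against 0, 0.205 and 0.481 in poly-A libraries. In CA1 the poly-A levels of Hist1h1d, Hist2h4 and LOC680097 were below 1 RPM in every library. These genes met the filter there through their WT level, so their direction and lack of overlap are partly set by it. Of the listed histone genes 27 lie on chromosome 17, and 18 of these were tested.

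The members that did not reach 2-fold were Hist3h2ba and Hist3h2a, which encode H2B and H2A, with means of 0.31 and 0.84. Histone genes of the other kind, whose messages carry a tail, were placed in a separate list of 13 with 9 tested. None was higher (4.82% of all genes), 1 was lower in all subfields (11.1%, against 2.7% of all genes), and the median was -0.30. H1fx, a linker histone variant, had 3.49, 5.76 and 9.35 RPM in CA1 WT libraries and 16.7, 22.6 and 30.9 in poly-A libraries, a difference of -1.87 ± 0.0532. H2afx, a variant that is modified at DNA breaks, had a mean of -0.89, and H1f0, the linker histone of non-dividing cells, of -0.54. All 9 had a mean of at least 1 RPM in both tables.

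**Figure D3:**
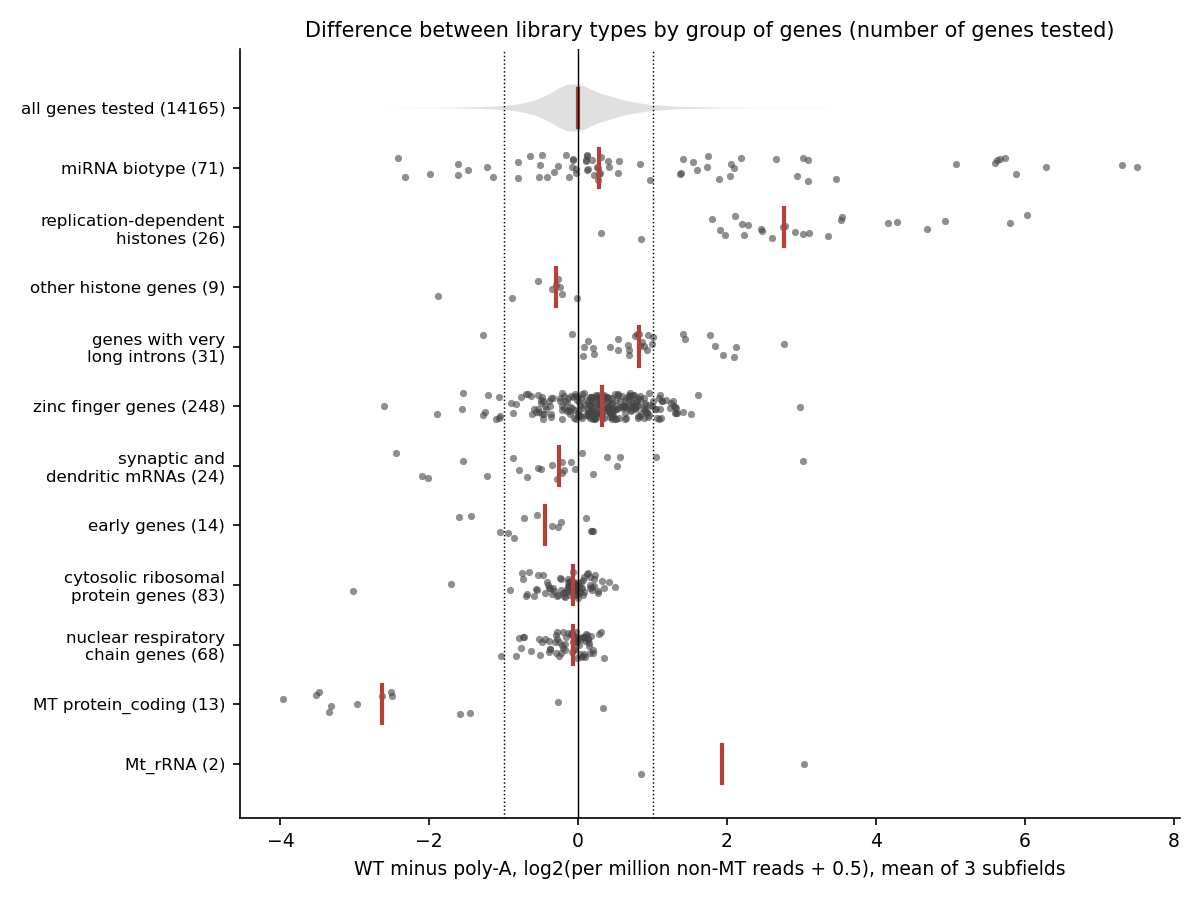
Mean log2 difference, WT minus poly-A, over CA1, CA3 and DG (x axis), 1 point per tested gene in each list (y axis), with the list's median as a red bar, lines at -1 and 1, and the distribution of all 14165 genes as a violin. Replication-dependent histones lie furthest right with a median of 2.76, and MT protein-coding genes furthest left with -2.64.

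Of 1392 miRNA genes listed, 328 had no read in either table and 71 passed the filter, of which 27 (38.0%) were higher and 7 (9.86%) lower in all subfields, against 4.82% and 2.7% of all genes. Of the 27, 24 had a poly-A mean below 1 RPM and passed through their WT level, so these shares are partly set by the filter. RefSeq gave a mature sequence by symbol for 341 of those listed and 23 of those tested, and 26 of the 34 that differed carry only a clone or LOC name. The largest differences of any gene belonged to such names. LOC102547961, on chromosome 10, had 29.0, 100 and 152 RPM in CA1 WT libraries and 0, 0 and 0.197 in poly-A libraries, with a mean difference of 7.50. AABR06097617.2, on chromosome 19, had 46.6, 87.5 and 132 against 0, 0.0346 and 0.255, with a mean of 7.30. AABR06064489.1 had a mean of 6.29, and AABR06049881.1, AABR06014115.1, AABR06029321.1 and AABR06034736.1 lay between 5.63 and 5.88. In all 7 the WT and poly-A libraries were apart in every subfield, the divergent CA3 poly-A library included.

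Named miRNA genes differed less. Mir344-1, whose 2 arms are printed above, had 0.842, 2.73 and 7.30 RPM in CA1 WT libraries and 0, 0.161 and 0.637 in poly-A libraries, a difference of 2.24 ± 0.0858. The groups were apart in CA1 and DG and overlapped in CA3, where the divergent poly-A library had 3.65 RPM. The other 33 had at most 0.741, below the lowest WT value of 0.808. Mir344a-2, which shares the seed, had a mean of 2.05 and Mir344g of 1.54. Of 5 genes listed under this family name 3 were tested, and their poly-A means were below 1 RPM in every subfield, so they passed the filter through their WT level and had to be higher. Mir384 had a mean of 1.59 and Mir3597-1 of 1.41. These genes had few reads in poly-A libraries, with CA1 medians from 0.0797 to 1.06 RPM.

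Mir770 was the lone named gene with a mature sequence that was lower. It had 5.89, 10.8 and 25.6 RPM in CA1 WT libraries and 30.7, 48.0 and 83.9 in poly-A libraries, a difference of -1.94 ± 0.0750 (limma adjusted p = 5.94e-24). It was lower in 34 of 34 pairs of each subfield, and the groups overlapped in CA3 and DG. The 2 lowest of the biotype were AABR06062980.1 at -2.41 and AABR06078907.1 at -2.32. The former had 1.69, 3.45 and 5.72 RPM in CA1 WT libraries against 13.0, 20.3 and 37.1.

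Genes with very long introns that neurons express had higher levels in WT libraries as a list. All 31 passed the filter, 8 were higher in all subfields (25.8%, against 4.82% of all genes) and none was lower (2.7% of all genes), with a median of 0.82, and 29 had a higher mean in every subfield, as did 6491 of all 14165 genes tested. Erbb4, a receptor for neuregulins, had 84.0, 106 and 120 RPM in CA1 WT libraries and 11.2, 23.0 and 39.1 in poly-A libraries, without overlap in any subfield, and a CA1 difference of 2.18 ± 0.0669. Csmd3, a large transmembrane protein, had a mean of 2.10. Lrp1b, a lipoprotein receptor relative, had a mean of 2.76 under 1 of its 2 identifiers, between which its reads are uncertain in assignment. Auts2, a nuclear regulator of gene expression in developing neurons, was among the 2 whose mean was lower in every subfield, at -1.28, and its libraries overlapped.

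Of 24 transcripts of synapses and dendrites, all tested, 5 were lower in all subfields (20.8%, against 2.7% of all genes) and 1 was higher (4.17%, near the 4.82% of all genes), and the median was -0.25. Grin2b, the GluN2B subunit of the NMDA receptor, had 385, 542 and 726 RPM in CA1 WT libraries and 25.2, 61.2 and 115 in poly-A libraries, a difference of 3.15 ± 0.0720, or 8.89-fold. In CA3 the divergent poly-A library had 408 RPM, inside the WT range of 316 to 644, and the other 33 had at most 77.4. Map2, the microtubule protein of dendrites, had a mean of 1.04 but reached only 0.95 in CA3.

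Vamp2, the SNARE protein of synaptic vesicles, had 162, 223 and 389 RPM in CA1 WT libraries and 1044, 1216 and 1414 in poly-A libraries, 5.18-fold lower (difference -2.37 ± 0.0568). Nrgn, the postsynaptic calmodulin-binding protein neurogranin, had a mean of -2.10 and was apart in every subfield. Shank1, a scaffold of the postsynaptic density, had a mean of -2.02, and 1 WT library of CA1, at 794 RPM, lay inside the poly-A range. Outside the lists, the nuclear genes with the lowest values included Prrt1, a partner of AMPA receptors, and Atp1b2, a subunit of the sodium-potassium pump. Prrt1 had 19.7, 32.4 and 63.6 RPM in CA1 WT libraries against 195, 278 and 320 in poly-A libraries, a difference of -3.03 ± 0.0761, and Atp1b2 a mean of -2.78. AABR06064925.1, with no described role, had a mean of -3.09.

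**Figure D4:**
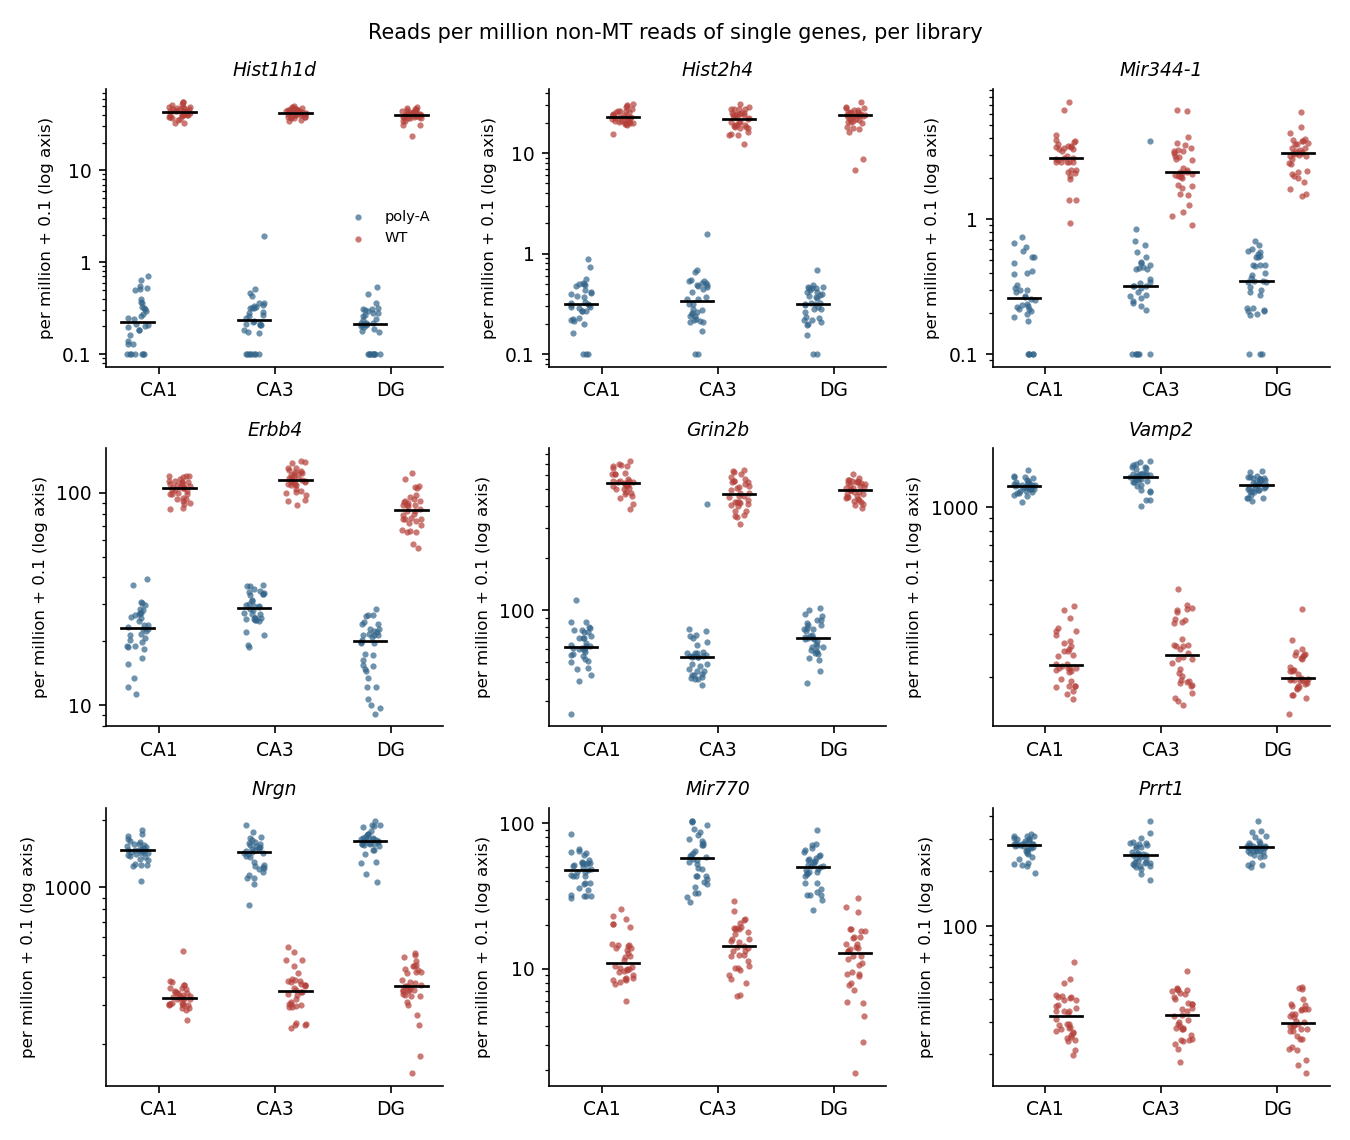
Level in RPM plus 0.1 (y axis, log scale) of 9 genes in the poly-A libraries (blue) and WT libraries (red) of CA1, CA3 and DG, 1 point per library with the median as a black line. Hist1h1d, Hist2h4, Mir344-1, Erbb4 and Grin2b lie higher in WT libraries and Vamp2, Nrgn, Mir770 and Prrt1 lower, with 1 CA3 poly-A library of Grin2b at 408 RPM.

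Among 14 activity-dependent early genes, all tested, none was higher (4.82% of all genes) and 2 were lower in all subfields (14.3%, against 2.7% of all genes), with a median of -0.45. Egr1, an early growth response transcription factor, had 16.3, 37.0 and 94.8 RPM in CA1 WT libraries and 62.7, 116 and 221 in poly-A libraries, which overlap, with a difference of -1.63 ± 0.0856. Egr4, of the same family, had a mean of -1.44. Fosb, an AP-1 subunit, had -1.13 in CA1, -0.87 in CA3 and -1.14 in DG. Arc, the cytoskeletal protein of activated synapses, and Junb, another AP-1 subunit, had means of 0.20 and 0.18, so the members did not move as 1 group.

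Zinc finger genes were spread widely. Of 284 listed, 248 were tested, 22 were higher (8.87%, against 4.82% of all genes) and 8 lower (3.23%, near the 2.7% of all genes) in all subfields, with a median of 0.31. Zfp407 has 2 identifiers with means of 2.98 and 1.61, between which reads may be divided, and Zfp575 had -2.60. Snhg11, a host gene of small nucleolar RNAs and the sole member of the nuclear noncoding list found in the tables, had 102, 133 and 203 RPM in CA1 WT libraries against 292, 432 and 605, a difference of -1.67 ± 0.0348. Of 1118 olfactory and vomeronasal receptor genes, 651 had no read, 7 passed the filter and 2 were higher (28.6%, against 4.82% of all genes), 1 of which passed through its WT level. No spliceosomal snRNA gene was found by name.

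Genes of the translation and respiration machinery differed little as lists. Of 120 cytosolic ribosomal protein genes, 83 were tested, none was higher (4.82% of all genes) and 2 were lower (2.41%, near the 2.7% of all genes), with a median of -0.07. Rps16, a protein of the small subunit, had 22.3, 37.0 and 53.1 RPM in CA1 WT libraries against 248, 308 and 401, a difference of -3.05 ± 0.0551, and Rps15al2 had a mean of -1.71. Rps29 had the largest positive mean, 0.50. Many of these genes have pseudogene copies, so their reads are uncertain in assignment. Of 76 nuclear respiratory chain genes, 68 were tested and none was higher (4.82% of all genes). In this list 1, Uqcrb of complex III, was lower (1.47%, against 2.7% of all genes) at -1.03. The list median was -0.07 and the highest value 0.35, for Ndufa5 of complex I.

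Cell type markers were read in the same way, beside 4.82% of all genes higher and 2.7% lower. Of 8 tested CA1 pyramidal markers 1 was higher, Ndst4, a heparan sulphate enzyme, at a mean of 1.58. None of 10 CA2 and CA3, 9 dentate granule cell, 10 astrocyte, 6 oligodendrocyte precursor, 12 microglia, 8 endothelium, 6 choroid plexus and 9 interneuron markers was higher or lower in all subfields. Of 10 oligodendrocyte markers 1 was lower, Opalin, a myelin-side membrane protein, at -1.18, and of 6 blood markers 1 was higher, Alas2, of haem synthesis in red cells, at 1.37, 1.22 and 1.32 in CA1, CA3 and DG. Markers of 1 cell type could differ in sign: in astrocytes the glutamate transporter Slc1a2 had a mean of 1.10 and the calcium-binding protein S100b of -0.93. Among the genes with the largest shares, Calm2, a calmodulin gene, had a mean of -0.04, Mbp, a myelin protein, of -0.47 and Map1b, a microtubule protein, of 0.56.

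Pseudogenes and processed transcripts held a few large differences. Of 108 tested genes of the pseudogene biotype, 15 were higher (13.9%, against 4.82% of all genes) and 5 lower (4.63%, against 2.7%) in all subfields, with a median of 0.27. Of the 15, 8 had a poly-A mean below 1 RPM and passed the filter through their WT level. AABR06091665.2, on chromosome 17, had 3.85, 6.28 and 14.2 RPM in CA1 WT libraries against 0, 0.0140 and 0.262, and a mean of 3.61. AABR06044564.1 had a mean of 3.24, and AABR06065275.1 and AABR06032175.1 had -1.54 and -1.38. Of 46 processed pseudogenes 2 were higher and 2 lower (4.35% each), with LOC102550441 at 1.87 and Pabpc1l2a, a copy related to poly-A-binding proteins, at -1.97. Of 30 processed transcripts 3 were higher (10.0%) and 1 lower (3.33%): Rc3h1, the RNA-binding protein roquin, had a mean of 1.61 and Mlxipl, a glucose-responsive transcription factor, of -1.84. Of 3 unprocessed pseudogenes tested 1 was higher, and of 2 lincRNA genes and 1 transcribed processed pseudogene none was called.

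The Ion Proton poly-A libraries of the same names gave another poly-A reference. Both comparisons use the same WT libraries, so the values are set side by side and their likeness is not a result. Of the 683 genes that were higher, 677 were in the Ion Proton table and 540 (79.8%) had a difference of at least 1 there, against 8.78% of all genes, and 263 of 370 that were lower (71.1%) had a difference of -1 or less, against 4.87%. The median of the replication-dependent histones was 2.76 against Illumina and 2.68 against Ion Proton, and that of the other histone genes -0.30 and -0.18. For the long-intron genes the medians were 0.82 and 0.80, and for synaptic transcripts -0.25 and -0.25. Ribosomal protein genes had medians of -0.07 and 1.78, and miRNA genes 0.28 and 1.10. Processed pseudogenes had medians of -0.01 and -3.51. Single genes could change sign, as AABR06062980.1 did with -2.41 and 0.49, and LOC102550441 with 1.87 and -0.74. MT genes are all at 0 in the Ion Proton table and were not compared there.

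The ratio of WT to poly-A level was next compared between subfields within each rat. The limma test called 1000 genes (7.06%) between CA1 and CA3, 144 (1.02%) between CA1 and DG, and 320 (2.26%) between CA3 and DG, and none of these differences (0.0%) reached 1 on the log2 scale. The ratio was larger in CA1 than in CA3 for 385 genes (2.72%) and smaller for 615 (4.34%), larger in CA1 than in DG for 118 (0.833%) and smaller for 26 (0.184%), and larger in CA3 than in DG for 232 (1.64%) and smaller for 88 (0.621%). In the 22 rats without a library nearest another subfield the counts were 720, 0 and 131, with 1566 genes at an unadjusted p under 0.05 by limma between CA1 and DG, and without the divergent CA3 poly-A library alone they were 1050 between CA1 and CA3 and 496 between CA3 and DG. Without the pairing within rats they were 424, 70 and 190. With edgeR they were 501 between CA1 and CA3 and 85 between CA1 and DG, and with TMM scaling 53 between CA1 and DG. Without the rats with a WT library low in rRNA in either subfield they were 317 (28 rats), 15 (30 rats) and 0 (26 rats), the last with 1986 genes at an unadjusted p under 0.05 by limma and 221 called by edgeR over all 34 rats. Slc8a1, the sodium-calcium exchanger, had CA1 levels of 258, 478 and 598 RPM in WT libraries and 33.0, 62.8 and 113 in poly-A libraries, and DG levels of 210, 334 and 516 against 41.0, 59.9 and 88.4. Its difference was 2.90 in CA1 and 2.48 in DG, larger in CA1 in 31 of 34 rats (0.42 ± 0.0801, limma adjusted p = 0.0131). In the 22 rats it was 0.45 with an adjusted p of 0.23 by limma, and without the rats with a WT library low in rRNA 0.40 with 0.0442.

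Hist1h1b, a linker histone, had a difference of 2.73 in CA3 and 3.36 in DG (CA3 minus DG -0.62 ± 0.164, limma adjusted p = 0.0366). In the 22 rats the value was -0.72 (limma adjusted p = 0.0363), and without the rats with a WT library low in rRNA -0.64 (limma adjusted p = 0.185). Nhlh1, a transcription factor of the dentate granule cell list, had -0.73 in CA1 and -0.22 in CA3, where its median was 0.892 RPM in WT and 0.879 in poly-A libraries. Clec2g, a lectin-like receptor, was higher in WT libraries by 4.65 in CA1 and 4.27 in DG, and AABR06067089.1 by 2.19, 1.54 and 2.20 in CA1, CA3 and DG. In CA3 the divergent poly-A library had 2.92 RPM of AABR06067089.1, from 8 reads, and the other 33 at most 0.406, and without its pair the CA3 difference was 1.59. The share of processed transcripts gained 0.0318, 0.0505 and 0.0204 percentage points in CA1, CA3 and DG, with the CA3 gain larger than the DG gain in 31 of 34 rats.

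**Figure D5:**
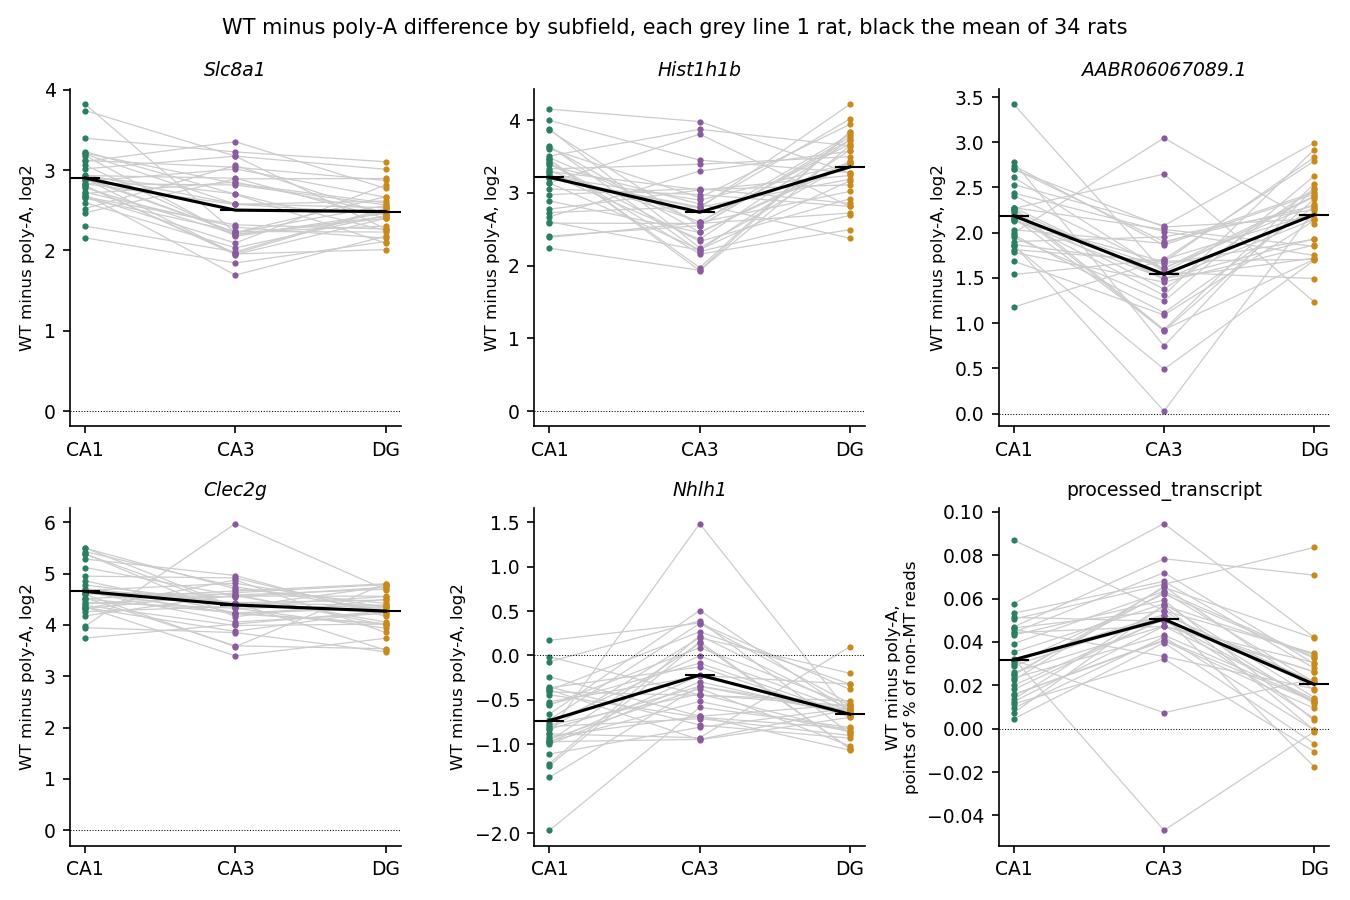
WT minus poly-A difference in CA1, CA3 and DG (x axis) for Slc8a1, Hist1h1b, AABR06067089.1, Clec2g and Nhlh1 (y axis, log2) and for the processed_transcript share (y axis, percentage points), with a grey line per rat and the mean over 34 rats in black. The mean of Slc8a1 is 2.90 in CA1 and 2.48 in DG, and the processed_transcript mean is largest in CA3 at 0.0505 points.

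Age and maze performance were also examined for an influence on the ratio. With limma and Benjamini-Hochberg adjustment, 0 genes (0.0%) differed between aged and young rats in any subfield, and 358 (2.53%), 324 (2.29%) and 429 (3.03%) had an unadjusted p under 0.05 in CA1, CA3 and DG. For impaired against unimpaired aged rats the count was 0 (0.0%) in each subfield, with 340 (2.4%), 639 (4.51%) and 882 (6.23%) genes at an unadjusted p under 0.05.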

How the data were processed

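Hippocampal RNA was extracted with the miRNeasy kit. The deposited values are a normalised signal: for poly-A libraries the authors trimmed reads with CutAdapt 1.8.3, aligned them to rn5 with STAR 2.5, counted them with featureCounts 1.4.4 and divided each library by a DESeq2 1.16.1 size factor, bcl2fastq 2.17 having made the reads (submitters' processing notes and methods). For the WT table these steps are not given in the sources used here. Whether counting used strand is unclear, since the labels and the methods name different kits, so overlapping genes cannot be told apart. Whole reads were recovered from the steps of each library (100.0% of values within 0.001 of a whole read), and 48 genes have no symbol.

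Libraries were paired by column name, which gives the rat and subfield, and 0 columns were left without a sample. Each library was scaled to its sum over genes outside the 37 MT genes, as reads per 1000000 (RPM). Genes with a mean of at least 1 RPM over the libraries of both tables (14165 of 26284) were tested with limma 3.58.1 (trend) in R 4.3.3 on paired log2 differences with a pseudocount of 0.5, Benjamini-Hochberg adjusted over all genes tested. A gene was counted as higher or lower at an adjusted p under 0.05 and a difference of at least 1. Shares, MT percentages and gene numbers were compared with two-sided sign-flip permutation tests (100000 resamples; Python 3.11.15, numpy 2.4.6, pandas 2.3.3). Fits were tested on simulated data first. Intervals between libraries reflect separate rats, and counts of reads cover counting error only.

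The pairs and gene lists were chosen with earlier results of these data known. Named genes were the 10 largest mean differences each way among genes called in all 3 subfields, the 2 largest each way per noncoding biotype, the 5 with the largest share per table, the 3 largest per pair of subfields, list members (for lists over 12, the 3 largest each way), MT genes and miRNA genes with a mature sequence. Of the genes this rule gave, a part is named. Alternatives were TMM, protein-coding and all-gene scaling, pseudocounts 0.1 and 2, no filter, edgeR 4.0.16 on recovered reads, no pairing, the Ion Proton table, the rat number series, at least 4 reads, and leaving out pairs nearest another subfield or not closest to their own name. Leaving out AABR06078907.4, the divergent CA3 poly-A library (also within the rats numbered from 9000 up) or the WT libraries low in rRNA was chosen after seeing the data.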

Additional observations from a re-analysis of the deposited data

Results flagged for a closer look

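The ratio of WT to poly-A level differed between subfields, by the test of that difference within rats, for 1000 genes between CA1 and CA3, 144 between CA1 and DG and 320 between CA3 and DG (limma, adjusted p under 0.05). The 3 largest per pair are named here with the number of rats. AABR06067089.1 had a larger difference in CA1 than in CA3 by 0.65 (log2, 29 of 34 rats, limma adjusted p = 0.0443) and a smaller difference in CA3 than in DG, at -0.66 (limma adjusted p = 0.0437). Ccdc162, a coiled-coil gene, had a CA1 minus CA3 value of 0.52, positive in 28 of 34 rats, and Nhlh1 of -0.51, positive in 7 of 34. Between CA1 and DG, Slc8a1 had 0.42, Clec2g 0.38 and Pgr, the progesterone receptor, 0.36, positive in 31, 25 and 26 of 34 rats. Between CA3 and DG, Hist1h1b had -0.62 and the 5S_rRNA copy on chromosome 11 had -0.59, positive in 7 and 10 of 34 rats. In the 22 rats without a library nearest another subfield, the adjusted p (limma) stayed under 0.05 for Nhlh1 (0.0401), Hist1h1b (0.0363) and AABR06067089.1 between CA3 and DG (0.0234), and not for the other 6 comparisons named. With edgeR the adjusted p was under 0.05 for 3 of the 9, namely Slc8a1 (0.00064), Pgr (0.00314) and Hist1h1b (0.0106), and not for Nhlh1 (0.314), AABR06067089.1 (0.124 between CA1 and CA3, 0.467 between CA3 and DG), Ccdc162 (0.244), Clec2g (0.914) or the 5S_rRNA copy (0.326). Without the rats with a WT library low in rRNA, limma kept 3 of the 9 under 0.05, namely AABR06067089.1 between CA1 and CA3 (0.0475), Slc8a1 (0.0442) and Pgr (0.0476). None of the 9 passed in all of these settings.

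The mean percentage of reads on MT genes fell less from poly-A to WT in DG than elsewhere. This DG mean is partly set by 3 pairs that were higher in WT, with WT values of 19.7%, 17.0% and 13.5% against a median of 9.11%. The first was nearest another subfield, and the others were not closest to their own name. The difference was not tested without all 3 pairs. The difference between subfields was -1.96 points for CA1 minus DG, negative in 29 of 34 rats (adjusted p = 0.000195, sign-flip permutation test), and -2.15 for CA3 minus DG (adjusted p = 0.00312, same test). In the 22 rats the latter was -1.20 (adjusted p = 0.266, permutation test). The gain in the share of processed transcripts differed by -0.0187 points for CA1 minus CA3, 0.0114 for CA1 minus DG and 0.0301 for CA3 minus DG (adjusted p = 0.00208, 0.0270 and 0.000195, sign-flip permutation test), and in the 22 rats all 3 kept their sign with adjusted p-values of 0.000780, 0.0383 and 0.000390 by the same test.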

How the results depend on the processing

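Of 411 comparisons of an alternative with its main value, 366 were counted as the same. These kept the direction and the side of the threshold, or failed the test in both settings whatever their direction. A count of genes was the same if it stayed within 1.5 times the main count. Against Ion Proton libraries the share differences turned to 1.22, 1.18 and 1.17 points for protein-coding genes in CA1, CA3 and DG, to -0.561, -0.596 and -0.571 for pseudogenes, to -0.0540, -0.0363 and -0.0677 for processed transcripts, to -0.00157, -0.00237 and -0.00168 for unprocessed pseudogenes, and to -0.0633 (CA1) and -0.0159 (DG) for miRNA genes. Against the same libraries 1398 genes were higher and 733 lower in CA1 and 1294 and 660 in CA3. The cause was not tested. Over all reads, MT included, protein-coding genes turned to 3.91, 4.07 and 1.96 points and processed pseudogenes were 0.000249 in CA1 and -0.000274 in CA3. In rats numbered from 9000 up processed pseudogenes were 0.000194, 0.000177 and -0.000532 in CA1, CA3 and DG, and protein-coding genes -0.0650 in CA3. Without the divergent library as well, CA3 processed pseudogenes were -6.78e-05 there and the miRNA gain passed the test at 0.0427. The CA3 miRNA gain passed the test at 0.126 points without pairs nearest another subfield, 0.154 in rats numbered below 9000, 0.103 without the divergent poly-A library and 0.0395 without AABR06078907.4.

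The pairs share an animal and tissue. Without the replicate block, the counts of genes higher and lower were 862 and 485 in CA1, as with it, and the counts between subfields were 424 (CA1 and CA3), 70 (CA1 and DG) and 190 (CA3 and DG). Those counts were 501 and 85 for the first 2 pairs with edgeR, 53 between CA1 and DG with TMM scaling, 0 (CA1 and DG) and 131 (CA3 and DG) without rats nearest another subfield, and 496 (CA3 and DG) without the divergent library. Without the WT libraries low in rRNA they were 317, 15 and 0 (limma). Within each subfield, the WT against poly-A difference of every named gene then kept its direction and side of the threshold, or failed the test in both settings. Without a filter CA1 had 1037 genes higher.

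Of named genes, Calm2 turned to 0.0268 in CA1 and 0.00397 in CA3 over all reads and to 0.27, 0.33 and 0.32 in CA1, CA3 and DG against Ion Proton. Against Ion Proton Rps15al2 turned to 0.77, 0.68 and 0.51, AABR06062980.1 to 0.52, 0.39 and 0.55, and LOC102550441 to -0.56, -0.82 and -0.83. Ccdc162 was 0.0535 in DG in rats numbered below 9000. Scaling moved the median of all genes by -0.01 (TMM), 0.00 (protein-coding) and 0.05 (all genes). Genes near 0 in poly-A libraries have differences that depend on the pseudocount, and the WT preparation is not described in the sources used here.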
